A study of Rattus norvegicus with 24 samples.

Results

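In newborn rats, 67 genes were selected for standing at least 4.00 times lower in the liver with dexamethasone than with vehicle. The same rule kept their mean liver level with desisobutyryl ciclesonide and their mean lung level with dexamethasone close to those of vehicle. Of these genes, 25 were hardly present in vehicle lung, so the lung condition says little about them. The RNA of lung and of liver was sequenced in wild-type Sprague Dawley pups on postnatal day 6, 24 hours after the last of 5 daily subcutaneous injections begun on postnatal day 1. The pups received dexamethasone at 0.1 mg/kg, desisobutyryl ciclesonide at 1.25 mg/kg or a vehicle of 2.5% ethanol. Each of the 6 groups of tissue and treatment held 4 libraries, numbered 1 to 4. The labels do not say which libraries share a pup or a litter, so p-values measure the spread between these libraries.

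Dexamethasone is a synthetic glucocorticoid. Desisobutyryl ciclesonide is the active metabolite of ciclesonide, an inhaled glucocorticoid prodrug. Both bind the glucocorticoid receptor, a hormone-activated transcription factor that raises the transcription of some genes and lowers that of others. Around birth, glucocorticoids take part in lung maturation and in the onset of gluconeogenesis in the liver, and the newborn rat liver also still holds blood-forming cells. In whole tissue, fewer cells of a type and less RNA per cell cannot be told apart.

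The members were selected on levels in CPM, a gene's count relative to the total of all gene counts of its library, averaged over the 4 libraries of a group. A fold is the mean with drug plus 0.5, divided by the mean with vehicle plus 0.5. Of 30560 gene identifiers, 7784 had a mean of at least 10 CPM in vehicle liver, and 294 of these had a liver dexamethasone fold of 1/4 or less. The desisobutyryl ciclesonide fold in liver lay between 1/1.5 and 1.5 for 238 of the 294, below that window for 40 and above it for 16. Of the 238, the dexamethasone fold in lung lay in the same window for the 67 members, below it for 155 and above it for 16. Thus 28.2% of the 238 met the lung condition, beside 66.5% of all 7784 genes. The plot of liver folds against lung folds places the members among these 238 genes.

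**Figure D1:**
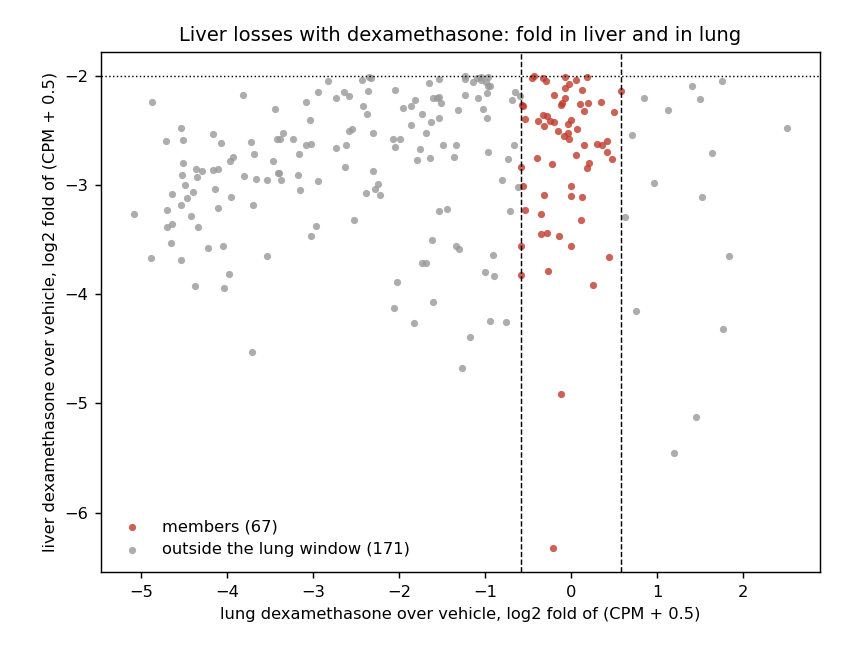
Each point is 1 of the 238 genes with a liver dexamethasone fold of 1/4 or less and a liver desisobutyryl ciclesonide fold within the window. The horizontal axis is the log2 fold with dexamethasone in lung and the vertical axis that in liver. Red points, the 67 members, lie between the dashed lines at 1/1.5 and 1.5, and more of the grey points lie to the left of the window (155) than to the right (16).

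No gene names stand beside the identifiers. The reference of 47357 rat genes at hand listed no Ensembl identifiers, so 0 of the 30560 identifiers could be matched. Members are therefore given by Ensembl identifier with no name or function. Levels of marker genes, named pathways and sequences were for that reason not analysed here, and the labelled tissues were not checked against markers. At most 2 members per naming criterion are given by identifier, with a few more that were chosen after their values were seen and are marked as such.

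The members fell into groups that differ in lung. In vehicle lung, 25 members had a mean under 1 CPM and are called liver-restricted here. The other 42 were at 1 CPM or more and are called shared with lung, and 18 of these had a vehicle mean in lung above that in liver. Genes under 1 CPM in vehicle lung made up 37.3% of the members, beside 3.65% of the 7784 genes. The lung window itself raised this share. Of the 238 genes before it, the same 25 and 6 others were under 1 CPM there. A gene hardly present in lung meets the lung window through the added 0.5, so for the 25 liver-restricted members the lung condition says little about dexamethasone. For the 42 others it rests on measured levels, from 1.35 CPM in vehicle lung upward. The added 0.5 still moves the fold of the lowest of them toward the window. The map of members by library shows both groups.

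**Figure D2:**
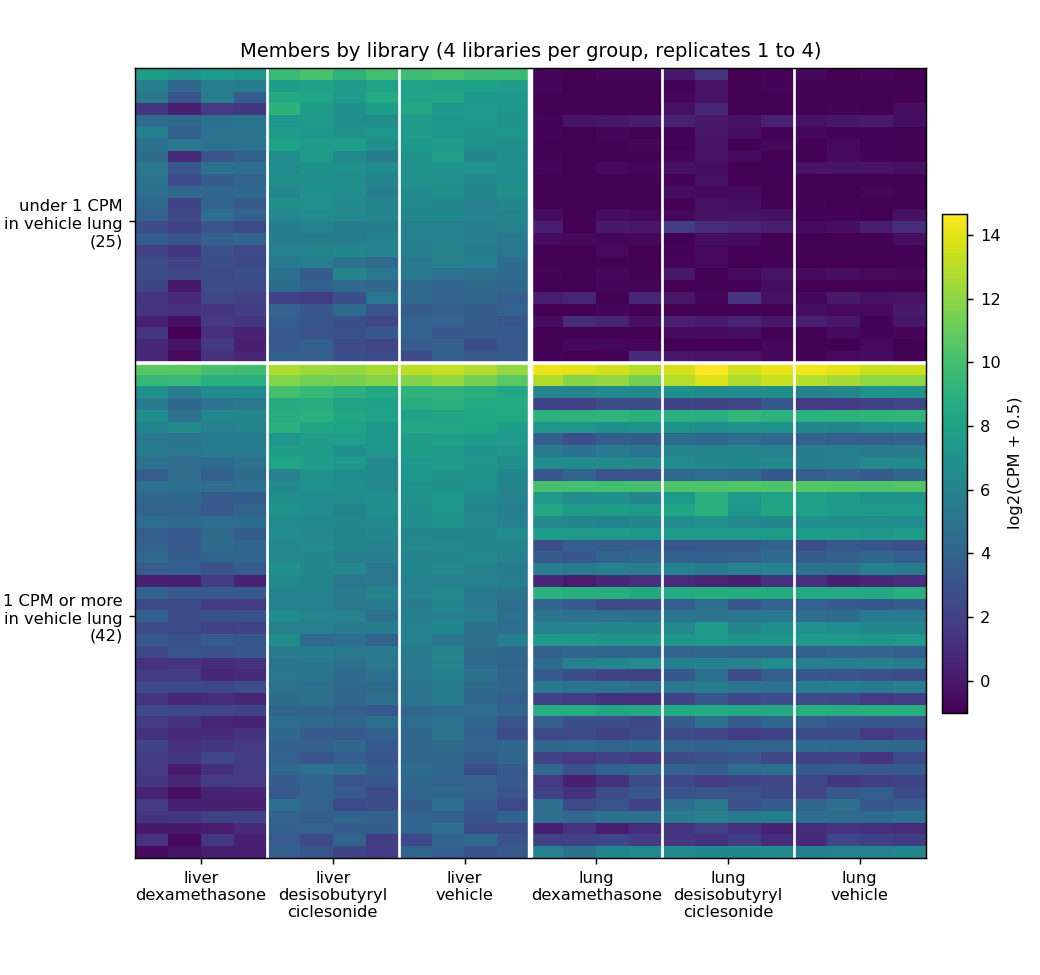
Each row is a member, ordered within each block by liver vehicle level, and each column a library, with colour for log2(CPM + 0.5). The 25 liver-restricted members (top) are dark in the 12 lung libraries, the 42 shared members (bottom) span dark to bright there, and both blocks are darker in the 4 dexamethasone livers than in the other 8 livers.

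In liver, the members' means plus 0.5 CPM were 4.00 to 80.3 times lower with dexamethasone than with vehicle, with a median of 5.77 times. On this scale, 47 members were at least 5 times lower and 11 at least 10 times lower. The added 0.5 makes these ratios smaller than those of the means alone. The median fold was 0.173 with dexamethasone and 0.956 with desisobutyryl ciclesonide in liver, whose window the rule set. In the dexamethasone livers the members' mean levels ran from 0.509 to 1285 CPM with a median of 8.41 CPM, against 10.05 to 7559 CPM with a median of 55.7 CPM in vehicle livers. These values chose the members and are a description. Together the 67 members took 0.296% ± 0.0510 of the gene counts in dexamethasone livers, 1.56% ± 0.227 in desisobutyryl ciclesonide livers and 1.72% ± 0.462 in vehicle livers (SD, n = 4 each).

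A pair of members carried most of that share. ENSRNOG00000029886 and ENSRNOG00000047098, of the highest CPM in vehicle liver (CPM is not corrected for gene length), held 55.6% to 74.7% of the members' summed CPM in dexamethasone livers, 50.4% to 63.1% in desisobutyryl ciclesonide livers and 53.3% to 64.7% in vehicle livers. Without them the sum was 1089 ± 215 CPM in dexamethasone livers, 6797 ± 1380 CPM in desisobutyryl ciclesonide livers and 6554 ± 1132 CPM in vehicle livers (SD, n = 4 each). The lowest vehicle library, at 5316 CPM, stood above the highest dexamethasone library, at 1305 CPM.

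ENSRNOG00000029886 had 1606, 1596, 1000.0 and 937 CPM in the dexamethasone livers, 6869.7, 5119.7, 4705 and 6018 CPM in the desisobutyryl ciclesonide livers and 8841, 9712, 7262 and 4424 CPM in the vehicle livers. Every dexamethasone liver was below each of the other 8 livers, and desisobutyryl ciclesonide livers overlapped with vehicle livers. Dexamethasone differed from vehicle by a log2 fold change of −2.29 (SE 0.29). In lung the same gene stood at 19359.8, 16541, 11802 and 8094 CPM with dexamethasone, 12772, 26099, 12110.5 and 18768 CPM with desisobutyryl ciclesonide and 19677, 17059, 10702 and 11651 CPM with vehicle. The lung groups overlapped. The lowest lung library was above the highest desisobutyryl ciclesonide liver, but below the vehicle livers at 8841 and 9712 CPM.

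ENSRNOG00000047098 had a similar order of levels, with 682, 753, 445 and 456 CPM in the dexamethasone livers, against 3376, 4595, 2868 and 1642 CPM in the vehicle livers. Its desisobutyryl ciclesonide livers held 3451, 2598, 2799 and 3595 CPM, within the range of the vehicle livers. In lung it had 7554, 3676, 4518 and 2715 CPM with dexamethasone, 7625, 14711, 6855 and 10388 CPM with desisobutyryl ciclesonide and 7699, 5984, 4069 and 4189 CPM with vehicle. The desisobutyryl ciclesonide lungs were the higher ones on average, but the groups overlapped and the difference from vehicle did not pass the test (log2 fold change 0.94, SE 0.34, edgeR quasi-likelihood adjusted p = 0.0644).

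The lowest fold belonged to ENSRNOG00000018287, a liver-restricted member. Its level was 2.47, 0.864, 2.53 and 2.44 CPM in the dexamethasone livers, 558, 199, 118 and 222 CPM in the desisobutyryl ciclesonide livers and 343, 161, 171 and 148 CPM in the vehicle livers. The dexamethasone livers lay far below the other 8, and library 1 was the highest in the desisobutyryl ciclesonide group and in the vehicle group. The log2 fold change of dexamethasone over vehicle was −6.41 (SE 0.56). In lung it had no count in the 4 dexamethasone libraries, 35 counts over the 4 desisobutyryl ciclesonide libraries and 7 counts over the 4 vehicle libraries.

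ENSRNOG00000032729 had the second lowest fold. The dexamethasone livers held 0.844, 0.864, 3.04 and 0.908 CPM, the desisobutyryl ciclesonide livers 91.1, 66.9, 35.4 and 36.3 CPM and the vehicle livers 59.2, 55.7, 60.3 and 53.0 CPM. Its vehicle livers were close to one another, while its desisobutyryl ciclesonide livers lay on both sides of them. In lung it averaged 1.21 ± 0.446 CPM with dexamethasone, 1.29 ± 0.452 CPM with desisobutyryl ciclesonide and 1.35 ± 0.516 CPM with vehicle (SD, n = 4 each). With dexamethasone its liver mean of 1.41 ± 1.08 CPM lay near those lung means.

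**Figure D3:**
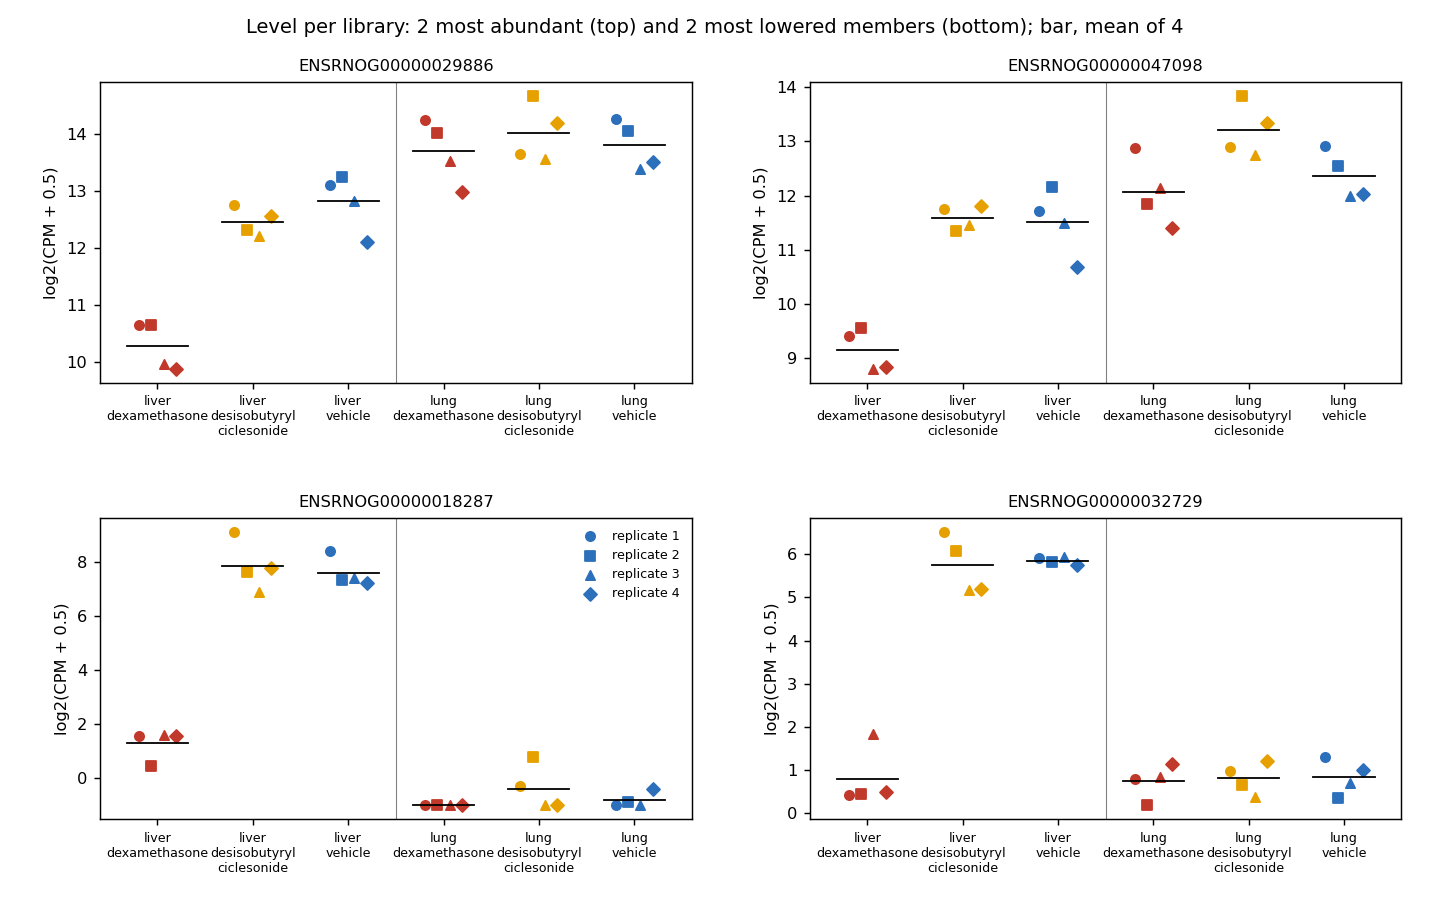
Level per library, as log2(CPM + 0.5), of ENSRNOG00000029886 and ENSRNOG00000047098 (top) and of ENSRNOG00000018287 and ENSRNOG00000032729 (bottom) in the 6 groups, with replicates 1 to 4 as symbols and the mean of 4 as a bar. The 4 dexamethasone livers lie below the other 8 livers in each panel, and the lung groups overlap in each.

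Among the liver-restricted members, ENSRNOG00000016648 had the highest CPM in vehicle liver, with 217, 134, 189 and 154 CPM in the dexamethasone livers, against 879.9, 1116, 864 and 822 CPM in the vehicle livers. Its desisobutyryl ciclesonide livers held 820.1, 1132, 576 and 991 CPM and overlapped with the vehicle livers. In lung it had 6 counts over the 4 dexamethasone libraries, 60 over the 4 desisobutyryl ciclesonide libraries and 5 over the 4 vehicle libraries. Summed, the 25 liver-restricted members held 609, 302, 548 and 469 CPM in the dexamethasone livers, against 3289.7, 3476, 2669 and 2568 CPM in the vehicle livers.

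At the edge of the selection, ENSRNOG00000018087 was the member nearest to the limit, with a liver fold of 0.2499 and means of 27.1 CPM in dexamethasone livers and 110.0 CPM in vehicle livers. The nearest gene outside that met the other conditions, ENSRNOG00000002657, had a fold of 0.2511 and means of 2.45 CPM in dexamethasone livers and 11.2 CPM in vehicle livers. Values on both sides of the limit were thus nearly alike in fold.

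Dexamethasone was lower than vehicle in liver at an adjusted p under 0.05 (edgeR quasi-likelihood test over the 13734 genes tested) for 67 of 67 members, where 24.9% of all genes tested were lower. The members' adjusted p ran from 9.86e-09 to 0.0300, and their median log2 fold change was −2.38, beside −0.02 over all genes tested. The 4 dexamethasone livers were below all 4 vehicle livers in CPM for 67 of 67 members, as for 31.2% of all genes tested. The rule used this contrast, so nothing is read from these counts. Composition scaling moved the median log2 change of all genes in this contrast to −0.03, against −0.24 with plain CPM, a shift of plain CPM by −0.216. With the rule applied to composition-scaled CPM there were 61 members.

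Each dexamethasone liver was also read as a library that had no part in the choice, with the same vehicle libraries. Choosing without dexamethasone library 1, 2, 3 or 4 gave 71, 58, 80 and 74 genes. In the library left out, the median fold of those genes was 0.191, 0.109, 0.202 and 0.195 in the same order. At 1/4 or less in it were 51 of 71, 54 of 58, 54 of 80 and 58 of 74 genes. The vehicle mean under each of these folds took part in the choice. The same share over all genes was not taken, so nothing is read from these counts.

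Between libraries of a group, the members' spread was wider than that of the median gene. The median coefficient of variation of the members was 31.7% in dexamethasone livers, 24.9% in desisobutyryl ciclesonide livers and 26.1% in vehicle livers, beside 16.9%, 13.7% and 13.5% over the 7784 genes. No test was made of this difference. The members' median level was 8.41 CPM in dexamethasone livers, beside 55.7 CPM in vehicle livers. These levels were used by the rule, and the 7784 genes were not matched to the members by level.

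Dexamethasone library 2 stood apart for the liver-restricted members. It was the lowest of the 4 dexamethasone livers for 24 of 25 of them (96%), for 19 of 42 shared members (45.2%) and for 50.3% of the 7784 genes. Their mean log2(CPM + 0.5) was 3.41, 2.21, 3.47 and 3.25 in dexamethasone libraries 1 to 4, against 6.08, 6.09, 5.78 and 5.72 in vehicle libraries 1 to 4. The widest gap, in a gene chosen after its values were seen, was that of ENSRNOG00000007601, with 23.1, 1.40, 8.22 and 14.3 CPM in the dexamethasone livers and 124, 240.1, 76.9 and 100.1 CPM in the vehicle livers. Without this library 58 genes met the rule, and 65 of the 67 members were lower with dexamethasone. The dexamethasone mean in the rule includes this library, so the shares above are a description.

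The shared members differed among vehicle livers. Libraries 1 and 2 were both above libraries 3 and 4 for 31 of 42 shared members (73.8%), for 14 of 25 liver-restricted members (56%) and for 27.6% of the 7784 genes. Vehicle library 4 was the lowest of the 4 for 41 of 67 members (61.2%), beside 21.9% of the 7784 genes. The mean log2(CPM + 0.5) of the shared members was 3.35, 2.99, 3.18 and 3.19 in dexamethasone livers 1 to 4 and 6.09, 6.34, 5.71 and 5.39 in vehicle livers 1 to 4. With vehicle libraries 1 and 2 both left out, 41 genes met the rule, of which 36 were among the 67. The rule used the levels of these libraries, so the shares are a description. What sets these libraries apart was not tested.

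**Figure D4:**
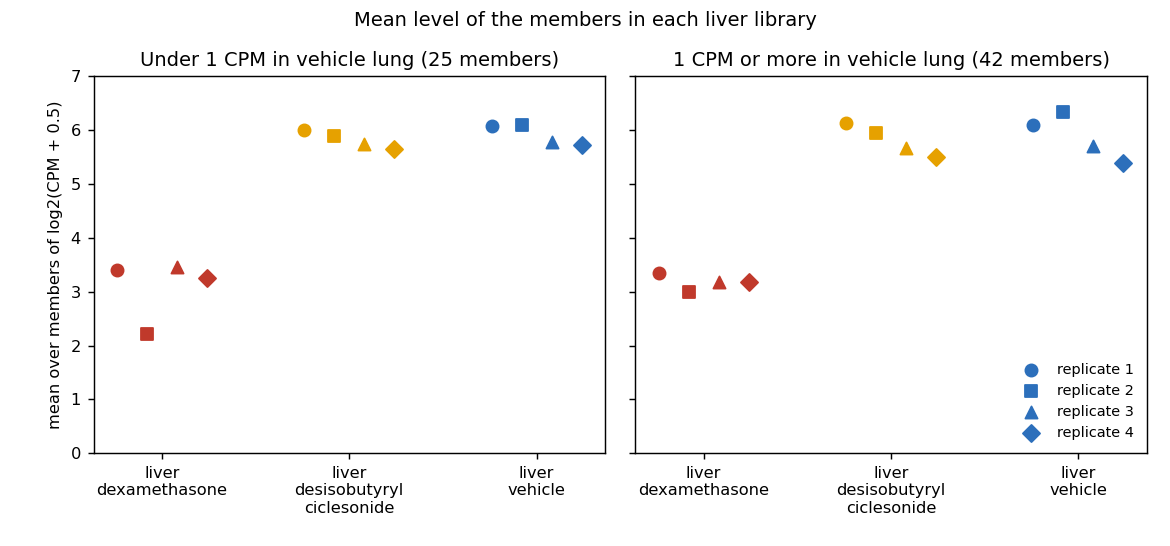
Mean of log2(CPM + 0.5) over the 25 liver-restricted members (left) and the 42 shared members (right) in each of the 12 liver libraries, with replicates 1 to 4 as symbols. Every dexamethasone library lies below every other library. Dexamethasone library 2 is the lowest in both panels (2.21 at left, 2.99 at right), and vehicle libraries 1 and 2 are above 3 and 4 in both.

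With desisobutyryl ciclesonide in liver, 0 of 67 members passed the test against vehicle, with 3 at an unadjusted p under 0.05 by edgeR, and 1 member each by DESeq2 and by limma-voom. Over all genes tested, 2.09% were higher and 2.43% lower. The rule confined these folds to its window, where they ran from 0.667 to 1.42, and 24 of 67 members had a mean CPM above that of vehicle. In the composition-scaled fit, 32 of 67 members had a log2 fold change above 0 (47.8%), beside 48.9% of all genes tested. With vehicle libraries 1 and 2 both left out, 3 members passed.

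The doses of the drugs differ, and their livers are set side by side here without reading a potency. Dexamethasone livers were lower than desisobutyryl ciclesonide livers for 66 of 67 members, beside 23.8% of all genes tested, in a direction that the rule fixed. The remaining member, ENSRNOG00000008394, named after its values were seen, had 2.01, 1.40, 4.58 and 3.74 CPM in dexamethasone livers, 3.94, 2.93, 6.66 and 34.4 CPM in desisobutyryl ciclesonide livers and 21.9, 15.02, 18.2 and 12.3 CPM in vehicle livers. Desisobutyryl ciclesonide libraries 1 to 3 lay below all 4 vehicle libraries and library 4 above them, so that its mean fell within the window through 1 library. Its log2 fold change of dexamethasone over desisobutyryl ciclesonide was −1.94 (SE 0.76, edgeR adjusted p = 0.0587).

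In lung with dexamethasone, 46 members passed the filter on low counts (the 42 shared and 4 liver-restricted ones) and 21 liver-restricted members were not tested. Of the 46, 3 were higher and 3 were lower than vehicle, where 26.9% of all genes tested were higher and 28.7% lower. The rule kept these folds between 0.667 and 1.496, so nothing is read from this count. The member with the lowest adjusted p, chosen after its values were seen, was ENSRNOG00000043377, with 141, 144, 116 and 132 CPM in dexamethasone lungs and 73.8, 67.6, 97.4 and 117 CPM in vehicle lungs. Only the lowest dexamethasone library overlapped with the vehicle libraries (log2 fold change 0.69, SE 0.16, edgeR adjusted p = 0.00247). The same gene averaged 66.8 ± 10.5 CPM in dexamethasone livers and 295 ± 59.4 CPM in vehicle livers (SD, n = 4 each).

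ENSRNOG00000018087 was lower in both tissues, with 1095, 1013, 982 and 1063 CPM in dexamethasone lungs, against 1505, 1396, 1287 and 1429 CPM in vehicle lungs. These lung groups did not overlap (log2 fold change −0.34, SE 0.09, edgeR adjusted p = 0.00644). Thus a member could fall in lung as well and still meet the window. In liver its log2 fold change was −1.78 (SE 0.19). Leaving out vehicle library 1 or dexamethasone library 3 of lung brought the 6 lung calls to 3 in each case.

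The difference between tissues in the dexamethasone change was tested in 1 fit over all 24 libraries. The change in lung less that in liver was higher in 46 of 46 members tested, beside 16.9% of all 13245 genes tested, again in a direction the rule fixed. For ENSRNOG00000008394 this call was lost in 11 of 21 alternatives (adjusted p 0.0150 to 0.183). The log2 difference ran from 1.45 to 5.00 with a median of 2.49. Its lowest value was that of ENSRNOG00000018087 and its highest that of ENSRNOG00000032729.

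Desisobutyryl ciclesonide in lung was the comparison with vehicle that the rule did not use, although its vehicle libraries entered the rule through the lung dexamethasone fold. Of 46 members tested, 6 were higher than vehicle and 0 were lower at an adjusted p under 0.05 (edgeR quasi-likelihood test), where 11.8% of all genes tested were higher and 12.3% lower. The log2 fold change was above 0 in 36 of 46 members (78.3%), beside 49.3% of all 16108 genes tested, and its median was 0.47, beside −0.01. An unadjusted p under 0.05 was found in 17 of 46 members (37.0%), beside 36.9% of all genes tested. All 4 desisobutyryl ciclesonide lungs were above all 4 vehicle lungs in CPM for 6 of 46 members, beside 10.9% of all genes tested. The share of members called higher was close to the background, and none was called lower. The count of 6 was 2 without vehicle lung 2, 3 without vehicle lung 3 and 3 without desisobutyryl ciclesonide lung 3.

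**Figure D5:**
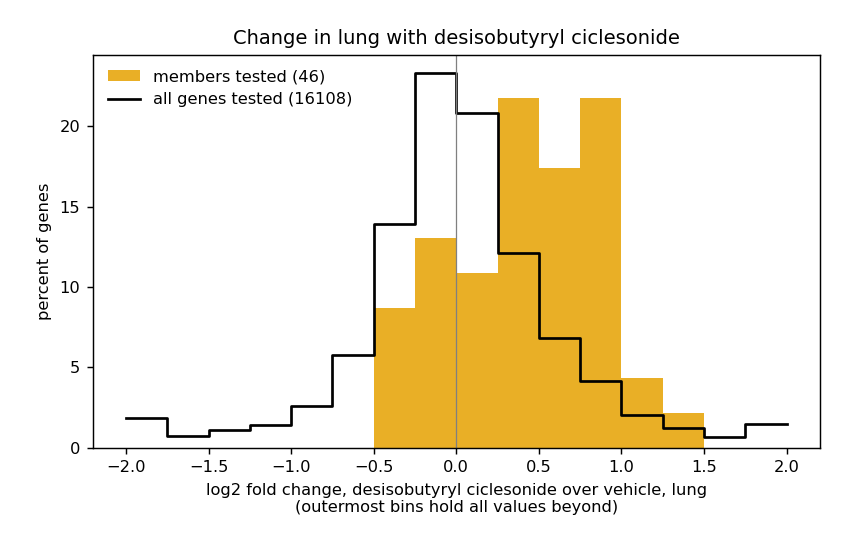
Percent of genes per bin of the log2 fold change of desisobutyryl ciclesonide over vehicle in lung, for the 46 members tested (bars) and all 16108 genes tested (line). The members' median is 0.47 and that of all genes −0.01, and 36 of 46 members lie above 0.

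ENSRNOG00000003835 had the lowest adjusted p in that comparison. Its level was 45.5, 56.0, 44.5 and 52.9 CPM in desisobutyryl ciclesonide lungs, against 24.9, 21.7, 20.1 and 28.5 CPM in vehicle lungs, and the groups did not overlap. The log2 fold change was 1.16 (SE 0.14, edgeR adjusted p = 0.000202). Its dexamethasone lungs, at 23.7, 18.9, 29.6 and 27.4 CPM, overlapped with the vehicle lungs. In liver it had 2.01, 2.38, 3.81 and 3.80 CPM with dexamethasone, 15.1, 11.6, 16.3 and 13.6 CPM with desisobutyryl ciclesonide and 16.9, 14.3, 7.96 and 16.3 CPM with vehicle.

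ENSRNOG00000015206 was next, with 64.7, 63.3, 65.5 and 57.1 CPM in desisobutyryl ciclesonide lungs, against 47.4, 53.2, 41.8 and 48.3 CPM in vehicle lungs. The groups did not overlap, and the log2 fold change was 0.49 (SE 0.13, edgeR adjusted p = 0.0157). Its dexamethasone lungs averaged 37.9 ± 7.92 CPM, below the means of both (SD, n = 4). They overlapped with the vehicle lungs, and that difference was not called. Without vehicle lung 3 its adjusted p was 0.0546, the highest of a range from 0.00235 over the alternatives.

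The tissue difference of the desisobutyryl ciclesonide change was higher in 2 of 46 members and lower in 0, where 2.31% of all genes tested were higher and 2% lower. One was ENSRNOG00000003835, with a log2 difference of 1.06 (SE 0.27, edgeR adjusted p = 0.0237). The other was ENSRNOG00000057058, with 1.32 (SE 0.33, edgeR adjusted p = 0.0214), named after its values were seen. ENSRNOG00000057058 held 6.11, 7.29, 8.23 and 4.73 CPM in desisobutyryl ciclesonide lungs and 3.96, 4.25, 2.21 and 5.33 CPM in vehicle lungs, and in liver 14.5, 8.63, 12.4 and 8.82 CPM with desisobutyryl ciclesonide and 18.1, 16.9, 11.9 and 17.8 CPM with vehicle. Both groups overlapped in each tissue, with the drug's mean above vehicle in lung and below it in liver. The count of 2 was 0 without desisobutyryl ciclesonide liver 2, 1 without vehicle liver 1 and 4 without vehicle lung 4.

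The liver-restricted members were mostly too low in lung to test. Their summed level was 8.39, 10.5, 6.83 and 4.17 CPM in desisobutyryl ciclesonide lungs, 2.49, 3.28, 3.71 and 4.70 CPM in dexamethasone lungs and 2.74, 3.52, 3.23 and 4.81 CPM in vehicle lungs. The desisobutyryl ciclesonide mean was above the vehicle mean in 22 of 25 of them (88%), as in 79.9% of the 284 genes that had at least 10 CPM in vehicle liver and under 1 CPM in vehicle lung. The dexamethasone mean was above it in 10 of 25. At these levels a value rests on few counts, and 4 members had no count in the dexamethasone lungs, 0 in the desisobutyryl ciclesonide lungs and 5 in the vehicle lungs.

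Behind these values stood 15839958 to 27881158 gene counts per lung library and 15397992 to 26194384 per liver library. Entries not aligned made up 1.08% ± 0.158 in desisobutyryl ciclesonide lungs, 2.66% ± 0.706 in dexamethasone lungs and 2.64% ± 0.287 in vehicle lungs, and 1.10% ± 0.258, 2.20% ± 0.227 and 2.69% ± 0.522 in the livers of the same treatments (SD, n = 4 each). The share not aligned was lower with desisobutyryl ciclesonide than with vehicle in both tissues. All entries outside genes, those not aligned among them, made up 22.6% to 23.9% in desisobutyryl ciclesonide lungs, 28.6% to 31.8% in dexamethasone lungs and 26.4% to 27.7% in vehicle lungs. In the livers of the same treatments they made up 16.8% to 19.3%, 22.3% to 22.8% and 21.8% to 22.7%. The part of these shares in the comparisons was not tested.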

How the data were processed

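The authors deposited whole-number counts per gene, not normalized, 1 file per library; per the submitters' processing notes, cutadapt, HISAT2, HTSeq and mRatBN7.2 were used. Per the labels' protocols, the libraries were directional and poly(A)-selected; the strand setting of the counting is not known here, and genes that overlap, lie antisense or are near-copies of one another have uncertain counts. The 5 summary rows took 16.8% to 31.8% of the entries of a library and stayed out of totals and tests.

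Groups came from the sample titles. The members and gene lists were chosen with earlier results of these data known. Treatments were compared with edgeR 4.0.16 in R 4.3.3 (TMM scaling, default expression filter, robust quasi-likelihood fit of 12 libraries per tissue, 24 for tissue differences), with Benjamini-Hochberg adjustment over all genes tested at 0.05. The procedure was also run on simulated data in which few genes changed, as many raised as lowered. The liver comparison of dexamethasone with vehicle had many more changed genes, so nothing is read from that run here. Alternatives were DESeq2 1.42.0, limma-voom (limma 3.58.1), other size factors, no filter, a replicate block, libraries left out and other limits of the rule. Each pair of replicates differed by more than sampling noise (a chi-square of at least 11.6 for each degree of freedom in the 36 pairs).

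Members to be named were those of highest CPM in vehicle liver, those of lowest liver dexamethasone fold, those of lowest adjusted p in lung with desisobutyryl ciclesonide and those at the limit, shortened to 2 each for want of gene names; ENSRNOG00000016648, was added as the liver-restricted one of highest CPM. The 27 gene lists, the cell type markers and the promoter motifs planned could not be applied to unnamed identifiers.

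Same-numbered lung and liver libraries of a treatment deviated together (correlation 0.112 to 0.325 in all 12 pairs of libraries), although the labels do not tie them to 1 pup; tissue differences have a blocked fit as an alternative.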

Additional observations from a re-analysis of the deposited data

Results flagged for a closer look

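In 5 of 84 groups of 4 libraries examined, 1 library stood far from the other 3. A rate of 1 in 20 groups would give 4.2. Some of the members examined were named after their values were seen, ENSRNOG00000008394 among them, so the count of 5 is a description. The groups examined were the 6 groups for each of the 12 members given by identifier and for the summed levels of the liver-restricted and of the shared members. ENSRNOG00000018287 had 0.864 CPM in dexamethasone liver 2, where the other 3 had 2.44 to 2.53 CPM, and 343 CPM in vehicle liver 1, where the other 3 had 148 to 171 CPM. ENSRNOG00000032729 had 3.04 CPM in dexamethasone liver 3, with the others at 0.844 to 0.908 CPM. ENSRNOG00000015206 had 35.5 CPM in dexamethasone liver 2, with the others at 43.4 to 44.9 CPM. ENSRNOG00000008394 had 34.4 CPM in desisobutyryl ciclesonide liver 4, with the others at 2.93 to 6.66 CPM.

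For desisobutyryl ciclesonide, edgeR's test of the difference between lung and liver called 2 of 46 members, both higher in lung less liver (background 2.31%), and did not call 44. With 1 library left out the count ran from 0 to 4. The log2 difference was 1.32 for ENSRNOG00000057058 and 1.06 for ENSRNOG00000003835. For dexamethasone the difference was higher in 46 of 46 members tested, a direction that the rule fixed.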

How the results depend on the processing

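The number of members, 67, was 120 with a liver fold of 1/3 or less, 26 with windows of 1/1.25 to 1.25, 42 with at least 1 CPM in vehicle lung, and 55 to 80 with 1 library left out. With vehicle livers 1 and 2 both left out, an alternative chosen after seeing the data, it was 41. For desisobutyryl ciclesonide in liver, 0 members were called, but 1 with DESeq2, 1 with limma-voom, 0 to 1 with 1 library left out and 3 without vehicle livers 1 and 2. With 1 library left out, calls ranged from 65 to 67 for dexamethasone against vehicle and against desisobutyryl ciclesonide in liver, from 3 to 8 and from 2 to 7 in lung for dexamethasone and desisobutyryl ciclesonide against vehicle, and from 44 to 46 and from 0 to 4 for the tissue differences of dexamethasone and desisobutyryl ciclesonide. For single genes, 79 values had 1239 alternatives, of which 38 lost their call, 12 gained one and 0 reversed a called direction. The call of dexamethasone against vehicle for ENSRNOG00000008394 was lost in 8 of 15 alternatives (adjusted p 0.00544 to 0.109), that of its dexamethasone tissue difference in 11 of 21 (0.0150 to 0.183) and that of desisobutyryl ciclesonide in lung for ENSRNOG00000057058 in 8 of 13 (0.0146 to 0.126); the cause was not tested.

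With the replicate block, calls were 67, 0 and 66 in liver for dexamethasone against vehicle, desisobutyryl ciclesonide against vehicle and dexamethasone against desisobutyryl ciclesonide. In lung they were 7 and 8 for dexamethasone and desisobutyryl ciclesonide against vehicle, and 46 and 3 for their tissue differences, where numbers paired the libraries and the block changed no call of a member given by identifier. Within liver, replicate numbers did not pair the libraries (correlations of −0.0929 to 0.107 between same-numbered libraries). Within lung the correlations ran from −0.259 to 0.362 and were mixed. Dexamethasone and vehicle lungs of numbers 1 to 3 correlated at 0.331, 0.123 and 0.344, and those of number 4 at −0.259. What same-numbered lungs share was not tested.

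Depth limits the lung values of the 25 liver-restricted members, of which 21 were not tested.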
